A study of Homo sapiens with 6 samples.

Results

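Wnt targets, Wnt regulators and intestinal stem cell genes were examined in SW480 cells, an established line from a human colorectal adenocarcinoma, that overexpressed POU5F1B or green fluorescent protein (GFP). The genes were listed by symbol, with earlier results of these data known. All 42 were found by Ensembl identifier among the 63677 identifiers of each count table. There were 3 libraries of polyA RNA from GFP cells and 3 from POU5F1B cells. Both kinds of cell carried a doxycycline-inducible lentiviral vector with puromycin selection and were given 1 µg/mL doxycycline for 72 h, so the control cells also carried a vector and received the drug. POU5F1B is a retrogene copy of POU5F1, the gene for the pluripotency factor OCT4. Nothing in the labels says that the replicates came from separate cultures, so p-values measure the spread between these libraries, which may be technical.

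In the canonical Wnt pathway, a Wnt ligand binds a Frizzled receptor and an LRP co-receptor, which keeps the destruction complex built on APC and axin from marking β-catenin for decay. β-catenin then enters the nucleus and acts with TCF/LEF factors on target genes, many of which feed back on the pathway. In the intestine this signal maintains the stem cells of the crypt base, which carry LGR5, and in most colorectal cancers, SW480 cells among them, it runs without ligand because full-length APC has been lost.

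The libraries held between 10767947 and 12787637 counts. The libraries labelled POU5F1B had 1182, 1056 and 121 CPM of POU5F1B in replicates 1, 2 and 3 (CPM is the read count scaled to a common library size, here with TMM factors), and the GFP libraries had at most 0.505. The POU5F1B level was thus far lower in replicate 3 than in replicates 1 and 2. No 2 replicates of a group agreed within counting noise (chi-square per degree of freedom at least 4.21). GFP replicate 3 stood apart from the other 5 libraries on the first principal component, which held 47.9% of the variance. The second held 32%. On it GFP replicates 1 and 2 lay at 40.9 and 38.2, and POU5F1B replicates 1 and 2 at -37 and -39.5. Both replicate 3 libraries lay between them, at 0.511 for GFP and -3.12 for POU5F1B. Results that rest on replicate 3 are therefore given with and without both replicate 3 libraries, a split made after the data had been seen. Of 11 colon epithelial markers, 7 had at least 10 counts in every library, including KRT8, KRT18 and EPCAM; CEACAM5, GPA33 and LGALS4 had at most 9 counts in any library.

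To ask whether the Wnt program differed between the groups, the genes were compared one by one and as a list. With all 6 libraries, 36 of the 42 genes had enough counts to be tested, and 0 of the 36 passed the threshold of an adjusted p-value under 0.05 with a fold change above 2 (limma voom). Over all genes, 0 of 14286 passed (0%), and edgeR also called 0 of the 36, whereas DESeq2 called 1, DKK1, which was lower, against 1.04% of all genes called lower. The overexpressed POU5F1B itself did not pass in voom (log2 fold change 10.7 ± 2.78 SE, adjusted p = 0.252) or in edgeR (adjusted p = 0.106). A count of 0 in these fits therefore does not show that the genes were unchanged. An unadjusted p under 0.05 was reached by 5 genes in voom and 5 in edgeR. In voom, CTNNB1 and CCND1 were higher and LEF1, DKK1 and SP5 lower in POU5F1B cells. That was 13.9% of the genes tested, beside 11.9% of all genes, a share near the background. The same 5 genes were those whose groups did not overlap in CPM, beside 19.4% of all genes. The 2 higher genes made up 5.56% of those tested (10.2% over all genes) and the 3 lower genes 8.33% (9.24% over all genes). The median log2 fold change of the 36 genes was -0.21, with 15 higher and 21 lower. Over all genes it was -0.023, with 6706 higher and 7580 lower. The median of the 36 genes was nearer 0 with 1 library left out. It was -0.071, -0.14 and -0.12 without GFP replicates 1, 2 and 3 and -0.17, -0.13 and -0.17 without POU5F1B replicates 1, 2 and 3. With quality weights it was -0.14. It was further from 0 with DESeq2 and edgeR (-0.25 in each) and with replicates 1 and 2 only (-0.24). The split of 2 higher and 3 lower genes turned to 4 and 1 when libraries were scaled by the upper quartile or by total counts, where 66.9% and 65.5% of all non-overlapping genes were higher instead of 52.4%.

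**Figure D1:**
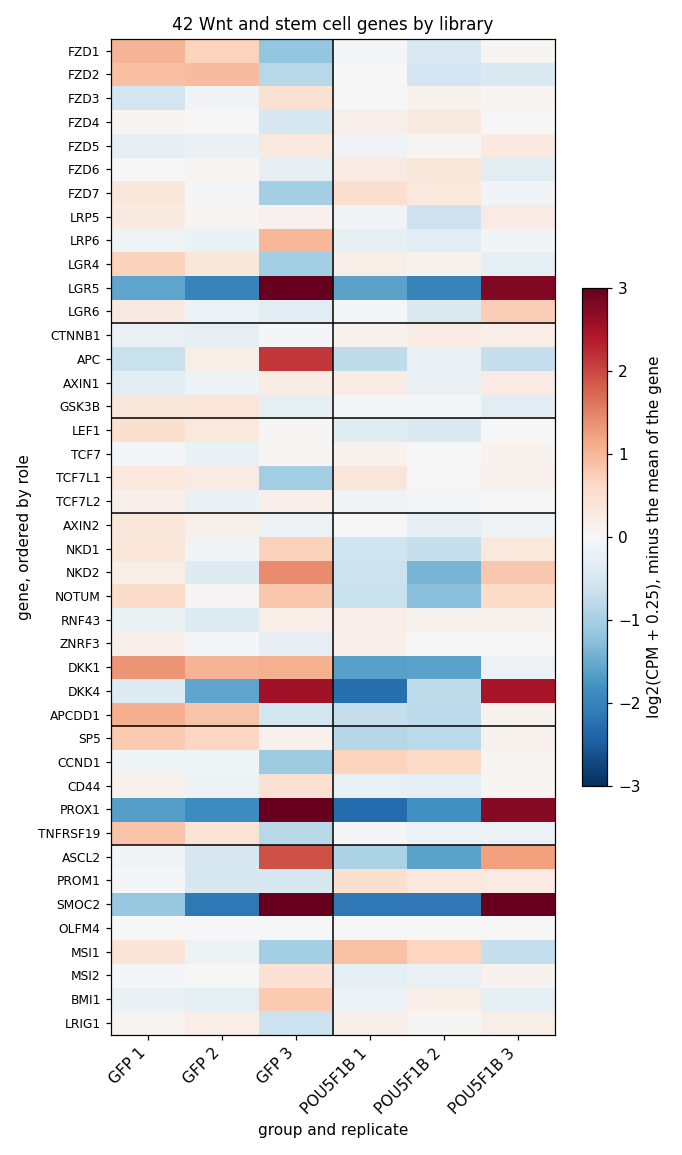
Heat map of all 42 genes (rows, ordered by role with lines between roles) in the 6 libraries (columns). Colour is log2(CPM + 0.25) minus the mean of that gene over the 6 libraries, limited to 3 in either direction. LGR5, PROX1, SMOC2 and DKK4 were dark red in both replicate 3 libraries, APC in GFP replicate 3 alone, and DKK1 was blue in POU5F1B replicates 1 and 2.

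DKK1, SP5 and LEF1 were the 3 genes that were lower in every POU5F1B library than in any GFP library, and the RefSeq promoters of the 3 (GRCh38.p14) are shown here for their TCF/LEF letters. TCF/LEF factors bind a short core, searched here as CTTTGAT and CTTTGAA on both strands in the 250 bases before each annotated start. Of the 42 genes, 27 had a promoter in the RefSeq table, with 43 start sites. At least 1 of the 2 cores was present at 9.3% of these start sites and at 5.94% of all 35116 start sites. SP5 held 3 cores, starting 148, 109 and 84 bases before the start, and DKK1 held 1, starting 95 bases before it. PROM1 and MSI2 held 1 each. LEF1 held neither. CCND1 was without an entry. In the sequences below, capitals mark the cores and all other bases are in lower case:
DKK1 (chr10:52314031-52314280, plus strand): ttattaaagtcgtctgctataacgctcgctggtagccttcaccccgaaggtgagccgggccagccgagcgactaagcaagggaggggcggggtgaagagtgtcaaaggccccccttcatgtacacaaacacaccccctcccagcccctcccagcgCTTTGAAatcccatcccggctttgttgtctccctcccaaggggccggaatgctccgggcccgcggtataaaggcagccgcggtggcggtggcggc
SP5 (chr2:170715087-170715336, plus strand): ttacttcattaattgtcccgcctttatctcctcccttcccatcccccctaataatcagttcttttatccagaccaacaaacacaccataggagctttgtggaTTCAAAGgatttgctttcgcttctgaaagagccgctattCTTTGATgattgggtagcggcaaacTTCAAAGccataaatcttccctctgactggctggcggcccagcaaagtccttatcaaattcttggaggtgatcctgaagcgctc
LEF1 (chr4:108166302-108166551, minus strand): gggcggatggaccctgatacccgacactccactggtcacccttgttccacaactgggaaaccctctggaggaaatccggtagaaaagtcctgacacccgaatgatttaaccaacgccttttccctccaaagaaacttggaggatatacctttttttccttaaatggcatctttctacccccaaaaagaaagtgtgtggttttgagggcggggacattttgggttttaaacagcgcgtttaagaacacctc
These matches describe the letters in a short window and say nothing on binding.

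DKK1 (ENSG00000107984), which encodes a secreted inhibitor that binds LRP co-receptors, showed the largest difference of the 36 tested genes. The gene spans 54074041 to 54077802 of chromosome 10 (GRCh37, plus strand). DKK1 had 51.4, 41.8 and 43.5 CPM in GFP replicates 1, 2 and 3 and 6.45, 6.58 and 18.1 CPM in POU5F1B replicates 1, 2 and 3. All 3 POU5F1B libraries lay below the GFP libraries, and POU5F1B replicate 3 lay closest to them. That library also had the least POU5F1B. The POU5F1B level cannot be told apart from other traits of replicate 3, and a link with DKK1 was not tested. The log2 fold change was -2.30 ± 0.36 (SE), and limma voom gave it an adjusted p of 0.185. DKK1 was past the threshold with DESeq2 (-2.13; adjusted p = 0.000176), with sample quality weights in voom (-2.60; adjusted p = 0.000438), without GFP replicate 3 (-2.33; voom adjusted p = 0.0111) and with replicates 1 and 2 only (-2.83; voom adjusted p = 8.94e-07). Over all alternatives its adjusted p ranged from 8.94e-07 to 0.927.

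Between same-numbered libraries, 7 of the 8 feedback regulators tested differed less in replicate 3 than in replicates 1 and 2, on the log2 CPM scale without regard to sign, and ZNRF3 did not. The share over all genes was not computed, so this count cannot be read as particular to these genes. APCDD1, AXIN2 and RNF43 had the opposite sign in replicate 3, and the replicate numbers were not taken to pair the libraries. APCDD1, a membrane inhibitor of Wnt signalling and the most abundant of the 9 feedback regulators per kilobase of exon in GFP cells (214 ± 106 CPM per kilobase, SD, n = 3), had 1765, 1491 and 562 CPM in GFP replicates 1, 2 and 3. In POU5F1B replicates 1, 2 and 3 it had 503, 480 and 890 CPM. The groups overlapped through GFP replicate 3, which was low, and POU5F1B replicate 3, which was high, and did not overlap when either of these was left out. The replicate 3 libraries differed in the opposite direction (0.66 on the log2 CPM scale, POU5F1B minus GFP). The log2 fold change of APCDD1 was -0.93 ± 0.46 (SE) with all libraries (limma voom adjusted p = 0.483) and -1.73 ± 0.085 with replicates 1 and 2 only (voom adjusted p = 3.17e-08). NOTUM, a secreted enzyme that removes the lipid of Wnt ligands, had 71.8, 50.7 and 86.1 CPM in the GFP libraries and 31.1, 20.4 and 71.8 CPM in the POU5F1B libraries. Only POU5F1B replicates 1 and 2 lay below the GFP range. Its log2 fold change was -0.91 ± 0.44 (SE; limma voom adjusted p = 0.471) and -1.25 ± 0.20 with replicates 1 and 2 only (voom adjusted p = 0.000632).

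NKD1 and NKD2, which bind Dishevelled, had log2 fold changes of -0.65 ± 0.32 and -0.80 ± 0.67 (SE). AXIN2, the inducible axin that is widely read as a gauge of the pathway, averaged 359 ± 64.4 CPM with GFP and 303 ± 26.5 CPM with POU5F1B (SD, n = 3). With all libraries the difference, -0.23 ± 0.16 (SE) on the log2 scale, was within the spread between libraries (limma voom adjusted p = 0.602). In contrast, RNF43 and ZNRF3, the ubiquitin ligases that clear Frizzled receptors, had log2 fold changes of 0.28 ± 0.16 and 0.088 ± 0.13 (SE). With all libraries the limma voom adjusted p of these 5 genes was at least 0.471. With replicates 1 and 2 only, AXIN2 had -0.38 ± 0.095, NKD1 -0.81 ± 0.13 and RNF43 0.45 ± 0.088 (SE, log2 scale). Their voom adjusted p was 0.00902, 0.000496 and 0.00231 in that order. NKD2 and ZNRF3 had -0.92 ± 0.28 and 0.0032 ± 0.10 (SE, voom adjusted p = 0.0274 and 0.985). All 5 were under the 2-fold limit, and in that fit 40.2% of all genes had an unadjusted p under 0.05. Of the 8 feedback regulators tested, 6 were lower and 2 higher in the fit of all libraries, and 0 passed the threshold. Their median log2 fold change was -0.73, beside -0.023 over all genes, of which 7580 of 14286 were lower.

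**Figure D2:**
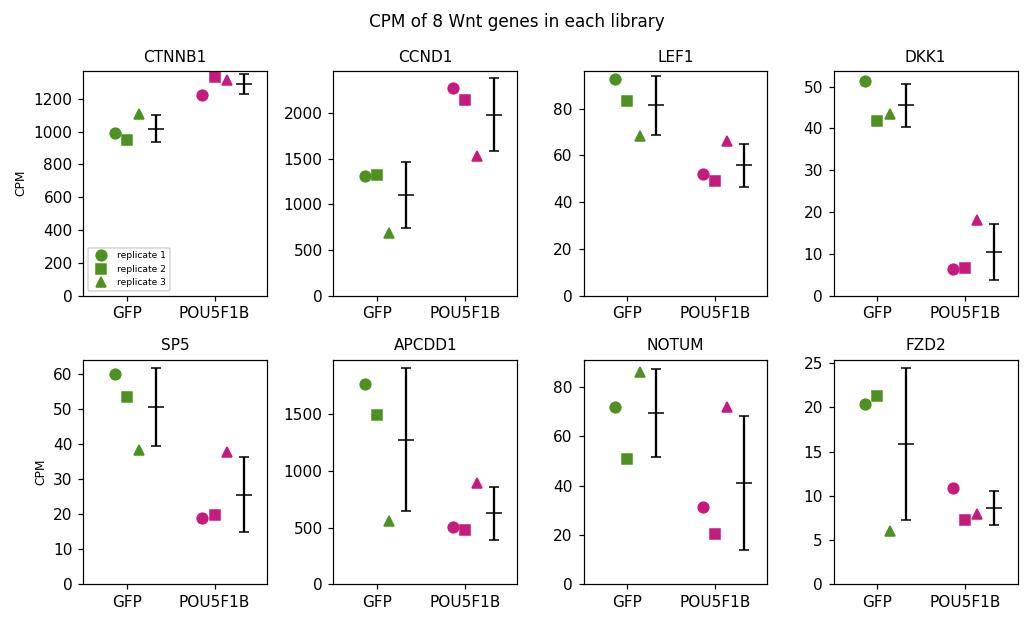
CPM of 8 genes (vertical axis from 0) in GFP (green) and POU5F1B (magenta) libraries. Circles, squares and triangles are replicates 1, 2 and 3, and black bars give the mean ± SD (n = 3). The groups do not overlap for CTNNB1, CCND1, LEF1, DKK1 and SP5, and replicate 3 of at least 1 group lies apart for APCDD1, NOTUM and FZD2.

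Among the other targets, SP5 and CCND1 separated the groups in opposite directions. SP5, a zinc finger factor induced by Wnt (ENSG00000204335; chromosome 2, 171571847 to 171574588, GRCh37), had 60.2, 53.5 and 38.4 CPM in GFP replicates 1, 2 and 3 and 19.0, 19.8 and 38.0 CPM in POU5F1B replicates 1, 2 and 3. The replicate 3 libraries were almost level, and the separation of the groups was lost with DESeq2 size factors, with the upper quartile, with total counts, with at least 10 counts in every library and without GFP replicate 2. The log2 fold change was -1.04 ± 0.31 (SE; limma voom adjusted p = 0.297), and -1.56 ± 0.13 with replicates 1 and 2 only (voom adjusted p = 4.78e-06).

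CCND1, which encodes cyclin D1, the partner of CDK4 and CDK6 in G1 (ENSG00000110092; chromosome 11, 69455924 to 69469242, GRCh37), had 1309, 1318 and 688 CPM in the GFP libraries. In the POU5F1B libraries it had 2269, 2141 and 1526 CPM. Both replicate 3 libraries were lower than replicates 1 and 2 of their group, and the difference between the groups was present in each (0.79, 0.70 and 1.15 on the log2 CPM scale between same-numbered libraries). Its log2 fold change was 0.88 ± 0.28 (SE; limma voom adjusted p = 0.321). With replicates 1 and 2 only it was 0.73 ± 0.060 (voom adjusted p = 3.38e-06), which is under the 2-fold limit. CCND1 was also the most abundant of the 42 genes per kilobase of exon, with 232 ± 75.8 in GFP and 416 ± 83.4 CPM per kilobase in POU5F1B cells (SD, n = 3). CD44, an adhesion receptor, and TNFRSF19, a receptor of the tumour necrosis factor family, had log2 fold changes of -0.29 ± 0.18 and -0.28 ± 0.41 (SE, limma voom adjusted p = 0.568 and 0.822). With replicates 1 and 2 only they were -0.25 ± 0.093 and -0.75 ± 0.14 (SE, voom adjusted p = 0.059 and 0.00141), both under the 2-fold limit.

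CTNNB1, which encodes β-catenin (ENSG00000168036; chromosome 3, 41236232 to 41301587, GRCh37), had 993, 948 and 1108 CPM in GFP replicates 1, 2 and 3 and 1221, 1334 and 1313 CPM in POU5F1B replicates 1, 2 and 3. All POU5F1B libraries lay above all GFP libraries, replicate 3 included, with means of 1016 ± 82.7 and 1289 ± 59.9 CPM (SD, n = 3). The difference was small (0.35 ± 0.098 SE on the log2 scale; adjusted p = 0.285 in limma voom). It was 0.38 ± 0.066 with replicates 1 and 2 only (voom adjusted p = 0.00104), under the 2-fold limit. Among the proteins of the destruction complex, the scaffold AXIN1 and the kinase GSK3B had log2 fold changes of 0.18 ± 0.20 and -0.29 ± 0.20 (SE, limma voom adjusted p = 0.748 and 0.607). With replicates 1 and 2 only they were 0.25 ± 0.15 and -0.41 ± 0.086 (SE, voom adjusted p = 0.223 and 0.00358), both under the 2-fold limit. APC had 8.51 and 15.3 CPM in GFP replicates 1 and 2 but 60.2 CPM in GFP replicate 3. In the POU5F1B libraries it had 7.86, 11.9 and 8.33 CPM. The higher mean of APC in GFP cells therefore rested on GFP replicate 3, and its log2 fold change moved from -1.10 ± 0.73 (SE; limma voom adjusted p = 0.592) to -0.35 without that library.

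Of the TCF/LEF factors, LEF1 alone separated the groups (25% of those tested, beside 19.4% of all genes). LEF1, itself a Wnt target (ENSG00000138795; chromosome 4, 108968701 to 109090112, minus strand, GRCh37), had 92.8, 83.1 and 68.1 CPM in the GFP libraries and 51.8, 49.0 and 66.3 CPM in the POU5F1B libraries. The replicate 3 libraries were again close to each other, and the separation was lost with the upper quartile, with total counts, with at least 10 counts in every library and without GFP replicate 2. The log2 fold change was -0.55 ± 0.18 (SE; limma voom adjusted p = 0.323), and -0.81 ± 0.11 with replicates 1 and 2 only (voom adjusted p = 0.000132). TCF7, the most abundant of the other 3 factors per kilobase (11.2 ± 0.931 CPM per kilobase in GFP cells, SD, n = 3), had a log2 fold change of 0.13 ± 0.11 (SE), TCF7L2 of -0.087 ± 0.17 and TCF7L1 of 0.33 ± 0.39, each within the spread between libraries (limma voom adjusted p at least 0.668).

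Of the 12 receptors, all but LGR5 were tested, and 0 of the 11 separated the groups, beside 19.4% of all genes. FZD1 had 16.3, 12.6 and 3.39 CPM in the GFP libraries and 7.55, 5.65 and 8.08 CPM in the POU5F1B libraries. FZD2 had 20.4, 21.3 and 6.0 CPM in the GFP libraries and 10.9, 7.23 and 7.91 CPM in the POU5F1B libraries. Both Frizzled receptors were high in GFP replicates 1 and 2 alone. With replicates 1 and 2 only, their log2 fold changes were -1.12 ± 0.22 and -1.23 ± 0.20 (SE; limma voom adjusted p = 0.00232 and 0.000599), whereas with all libraries they were -0.35 ± 0.59 and -0.70 ± 0.53 (adjusted p = 0.85 and 0.636). FZD3, FZD4, FZD5, FZD6 and FZD7 had log2 fold changes between 0.12 and 0.47. The co-receptors LRP5 and LRP6 had -0.31 ± 0.21 and -0.44 ± 0.34 (SE), and LGR4 and LGR6, receptors for R-spondins, had -0.020 ± 0.45 and 0.17 ± 0.34 (SE). With all libraries the limma voom adjusted p of these 9 genes was at least 0.603. With replicates 1 and 2 only LRP5 had -0.53 ± 0.14 (SE, voom adjusted p = 0.0114), under the 2-fold limit. The voom adjusted p of the others was then at least 0.0825. LGR4 changed sign with the upper quartile, with total counts and with at least 10 counts in every library.

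With replicates 1 and 2 only, 6 of the 36 genes were past the threshold (limma voom): FZD1, FZD2, NOTUM, DKK1, APCDD1 and SP5. All 6 were lower in POU5F1B cells, which was 16.7% of the genes tested, beside 5.15% of all genes lower, 3.21% higher and 8.36% in either direction. Both the gene list and this split were made with results of these data known, so these shares describe the list and test nothing. An unadjusted p under 0.05 was reached by 4 higher and 17 lower genes of the 36, when 19.5% of all genes were higher, 20.7% lower and 40.2% either. The groups did not overlap for 10 higher and 18 lower genes, when 32.6% of all genes were higher, 33.6% lower and 66.2% either. Without GFP replicate 3 alone there were 5 (FZD1, FZD2, DKK1, APCDD1 and SP5), beside 2.78% of all genes lower, 1.39% higher and 4.16% in either direction. Voom with quality weights, in which GFP replicate 3 counted least (0.111), called 4 (FZD2, DKK1, APCDD1 and SP5), beside 4.4% of all genes lower, 3.14% higher and 7.54% in either direction. Without POU5F1B replicate 3 there were 0 in voom, beside 0.021% of all genes lower, 0.014% higher and 0.035% in either direction. At an unadjusted p under 0.05 there were then 8 (22.2%, 6 of them lower), beside 12.5% of all genes in either direction and 6.05% lower. Between the replicate 3 libraries, a comparison of 1 library with 1 that allows no test, DKK1, NOTUM and SP5 differed in the same direction, by -1.25, -0.26 and -0.015 on the log2 CPM scale, and FZD1, FZD2 and APCDD1 in the opposite direction, by 1.21, 0.39 and 0.66. Of the 6, DKK1 alone was also more than 2-fold lower in POU5F1B replicate 3 than in GFP replicate 3.

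**Figure D3:**
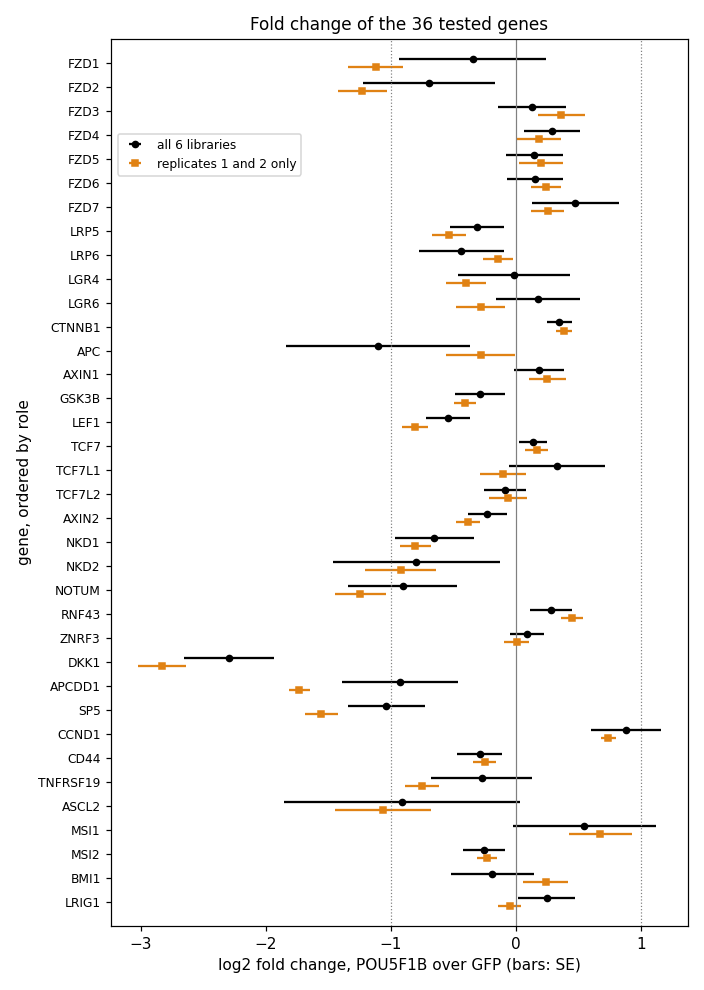
Log2 fold change of the 36 tested genes (POU5F1B over GFP), with bars of ± SE, from all 6 libraries (black circles) and from replicates 1 and 2 only (orange squares). Dotted lines mark the 2-fold limit. APCDD1, NOTUM, FZD1, FZD2 and ASCL2 lie beyond it with replicates 1 and 2 only. APC lies beyond it with all 6 libraries only, and DKK1 and SP5 in both fits.

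Some markers of other cell types moved with some of these genes. Of 6 fibroblast markers, COL1A1 and PDGFRB had at least 10 counts in every library, COL3A1 was at 0 in all 6, and DCN had at most 3 counts. The summed level of the fibroblast markers was 171, 148 and 27.4 CPM in GFP replicates 1, 2 and 3 and 13.4 to 22.6 CPM in the POU5F1B libraries, so it was high in the libraries where FZD1, FZD2 and APCDD1 were high. Most of the sum in the GFP libraries was COL1A1, with 142, 118 and 16.9 CPM in GFP replicates 1, 2 and 3. COL1A1 had 5.56 to 9.49 CPM in the POU5F1B libraries. PDGFRB had 28.2, 28.7 and 7.22 CPM in the GFP libraries and 8.73, 7.69 and 12.5 CPM in the POU5F1B libraries. LUM and DCN went another way, with counts in the replicate 3 libraries only. The epithelial cadherin gene CDH1 was higher in all POU5F1B libraries (98.3 to 164 CPM) than in the GFP libraries (30.2 to 72.7 CPM). It was alone in this among the epithelial markers with at least 10 counts in every library. EPCAM, KRT8, KRT18, KRT19, CDX2 and VIL1 overlapped between the groups, and CDX2 was lower in the fit (-0.32 ± 0.38 SE on the log2 scale). The 4 leukocyte markers summed to at most 2.19 CPM in any library, and of the 2 endothelial markers found, CDH5 had at most 2 counts and VWF had 71, 68 and 13 counts with GFP and 81, 52 and 30 with POU5F1B. In bulk RNA, fewer cells of a kind and less RNA per cell cannot be told apart, and the part of these markers in the Wnt results was not tested.

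LGR5, SMOC2, PROX1, DKK4 and ASCL2 were high in both replicate 3 libraries, whichever the group. LGR5, the receptor that marks crypt base stem cells, had 1, 0 and 239 counts in GFP replicates 1, 2 and 3, and POU5F1B replicates 1, 2 and 3 had 1, 0 and 79. SMOC2, a matricellular protein gene of the same stem cells, had 3, 0 and 240 counts with GFP, and 0, 0 and 134 with POU5F1B. Both genes were therefore at or under the floor of 3 counts, which is 0.229 to 0.278 CPM depending on the library, in each replicate 1 and 2 library, and well above it in both replicate 3 libraries. PROX1, a homeobox factor known as a Wnt target in colorectal tumours, had 9, 8 and 1111 counts with GFP, and 5, 7 and 250 with POU5F1B. DKK4, a relative of DKK1, had 8, 2 and 76 counts with GFP, and 0, 5 and 77 with POU5F1B. ASCL2, the transcription factor that sets the stem cell program, had 40, 32 and 163 counts with GFP, and 22, 11 and 105 with POU5F1B.

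These 5 genes were higher in both replicate 3 libraries than in any of the other 4. In CPM, GFP replicate 3 exceeded POU5F1B replicate 3 by 3.16 times for LGR5, 1.87 times for SMOC2, 4.64 times for PROX1 and 1.62 times for ASCL2, while DKK4 was level (1.03 times). LGR5, SMOC2, PROX1 and DKK4 had enough counts in only 2 libraries and were not tested in the comparison of the groups. ASCL2 was tested (-0.91 ± 0.94 SE on the log2 scale; adjusted p = 0.732 in limma voom). Counting all 42 genes, 9 were higher in both replicate 3 libraries than in the other 4 (LGR5, DKK4, PROX1, SMOC2, ASCL2, NKD2, FZD5, LRP6 and MSI2) and 6 were lower (FZD4, FZD6, FZD7, LGR4, GSK3B and MSI1). Of the 36 tested genes these were 5 and 6, beside 13.8% of all genes higher and 10.9% lower in both. GFP replicate 3 was over 2-fold above the mean of GFP replicates 1 and 2 for 5 of the 36 genes (12.3% of all genes) and over 2-fold below it for 8 (9.65% of all genes). The split by replicate number was seen in the data, so it is given with no test. Some markers moved with it and others did not. Of the 7 epithelial markers with at least 10 counts in every library, KRT8, KRT18, CDX2 and VIL1 were above the other 4 libraries in both replicate 3 libraries, and VIL1, which encodes the brush border protein villin, had 211 and 111 CPM there and at most 42.7 CPM elsewhere. EPCAM, CDH1 and KRT19 were highest of the GFP libraries in replicate 3 but lowest of the POU5F1B libraries. Of the 6 fibroblast markers, LUM (34 and 5 counts in GFP and POU5F1B replicate 3, 0 elsewhere) and DCN (3 and 1 counts, 0 elsewhere) were above the other libraries, whereas COL1A1, COL1A2 and PDGFRB were lower in GFP replicate 3 than in GFP replicates 1 and 2. The endothelial marker VWF was below the other 4 libraries in both. The part of these markers in the split was not tested. The labels give no culture, passage or date, so whether the replicate 3 libraries share a cell stock was not tested.

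**Figure D4:**
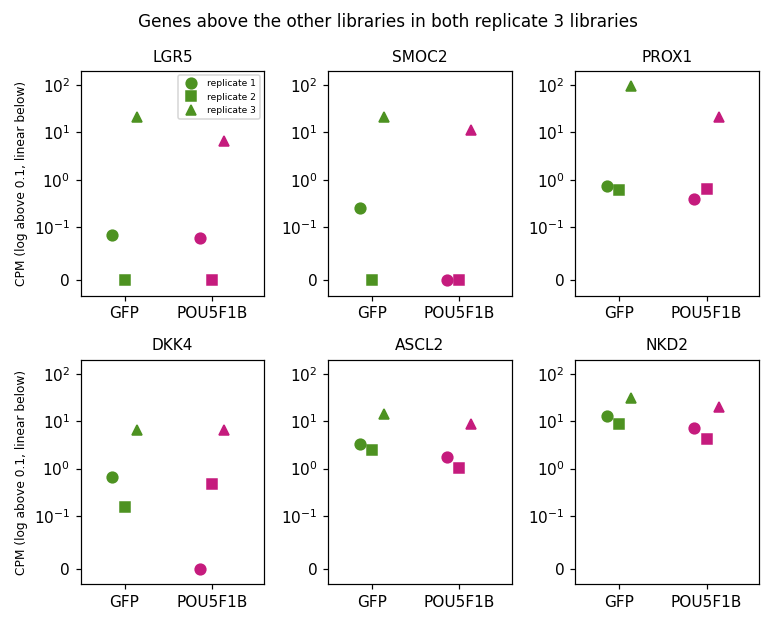
CPM of 6 genes in each library, on an axis that is logarithmic above 0.1 CPM and linear below. Circles, squares and triangles are replicates 1, 2 and 3 of GFP (green) and POU5F1B (magenta) cells. The triangles lie above the circles and squares of both groups for all 6 genes, and LGR5 and SMOC2 were at or near 0 in replicates 1 and 2.

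Of the 8 genes listed for intestinal stem cells, ASCL2, SMOC2 and MSI2 were thus above the other libraries in both replicate 3 libraries, MSI1 was below them, and the other 4 were neither. OLFM4, another crypt base marker, had 0 counts in all 6 libraries and was not detectable at this depth. PROM1, which encodes CD133, had 1, 0 and 0 counts with GFP and 3, 2 and 2 with POU5F1B, at or under the floor in each. The RNA-binding protein genes MSI1 and MSI2 had log2 fold changes of 0.55 ± 0.57 and -0.25 ± 0.17 (SE), BMI1, of the Polycomb group, -0.19 ± 0.33, and LRIG1, an ERBB inhibitor of crypt cells, 0.25 ± 0.23 (limma voom adjusted p at least 0.591). BMI1 had 26.2 CPM in GFP replicate 3 and 12.2 to 17.2 CPM in the other 5 libraries, and its fold change turned positive without that library (0.14).

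To set these genes in the rest of the pathway, 98 further Wnt genes were listed by role, and 72 had enough counts to be tested. With all libraries 0 of the 72 passed the threshold (limma voom), edgeR also called 0, and DESeq2 called 6, of which 2 were higher (WNT10A and WNT11) and 4 lower (WNT5A, BMP4, BAMBI and FGF18), against 0.581% and 1.04% of all genes. At an unadjusted p under 0.05 there were 9 higher and 10 lower (voom), or 12.5% and 13.9% of the genes tested, beside 6.07% and 5.82% of all genes. With replicates 1 and 2 only, 3 of the 72 were higher and 11 lower past the threshold (voom), beside 3.21% and 5.15% of all genes.

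Of 14 genes tested for Wnt ligands, their secretion and R-spondins, 4 were higher and 2 lower at an unadjusted p under 0.05 (28.6% and 14.3%), and 0 passed the threshold (limma voom). WNT5A, a ligand best known for signalling apart from β-catenin, had 373, 330 and 124 CPM in the GFP libraries and 78.1, 81.9 and 93.9 CPM in the POU5F1B libraries, with no overlap (-1.56 ± 0.42 SE on the log2 scale; adjusted p = 0.27 in limma voom). WNT10A and WNT11 were higher in all POU5F1B libraries, with log2 fold changes of 1.24 ± 0.30 and 1.14 ± 0.25 (SE; limma voom adjusted p = 0.236 and 0.22), at levels of at most 6.08 CPM. WNT16 was low in POU5F1B replicates 1 and 2 alone, with 3 and 2 counts against 24 to 36 in the other 4 libraries. The receptor FZD8 had at most 33 counts in a library and a log2 fold change of 1.69 ± 0.54 (SE).

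Of the 19 genes tested in the list of further reported targets, 4 were lower (BMP4, JAG1, BAMBI and FGF18) and 3 higher (ETS2, TIAM1 and L1CAM) in every POU5F1B library than in any GFP library, which was 21.1% and 15.8%, beside 9.24% and 10.2% of all genes. BMP4, a ligand of the BMP family, had 889, 811 and 517 CPM in the GFP libraries and 55.1, 48.3 and 316 CPM in the POU5F1B libraries. Like DKK1, it was lower in POU5F1B replicates 1 and 2 than in POU5F1B replicate 3, and a link with the POU5F1B level was not tested. The log2 fold change of BMP4 between the groups was -2.93 ± 0.65 (SE, limma voom adjusted p = 0.22). BAMBI, a decoy receptor for that family, had 261, 229 and 209 CPM against 78.6, 82.8 and 135 CPM (-1.28 ± 0.22 SE; limma voom adjusted p = 0.185). The Notch ligand JAG1 had a log2 fold change of -1.13 ± 0.29, FGF18 of -1.50 ± 0.47 and DACT1, a Dishevelled-binding protein from the list of cytoplasmic regulators, of -2.97 ± 0.85 (SE), with limma voom adjusted p between 0.252 and 0.308. The higher genes, which were named after their values were seen, had smaller differences, 0.52 ± 0.17 for ETS2, 0.96 ± 0.35 for TIAM1 and 0.62 ± 0.15 for L1CAM (SE; limma voom adjusted p between 0.240 and 0.357).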

How the data were processed

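RNA from 6 libraries of SW480 cells (3 GFP, 3 POU5F1B; groups and replicate numbers from the titles) was analysed from the deposited whole-number read counts per gene. To make these counts, the authors mapped reads to hg19 with hisat2 and counted uniquely mapped reads with featureCounts on an annotation of genes and transposable elements. The strand setting was not given in the sources used here, which leaves antisense overlaps uncertain, and close paralogs may share a few reads. The depth was 10767947 to 12787637 counts per library. Floors of 3 counts cover counting error only.

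Symbols were matched for 87.4% of 63677 identifiers. After filterByExpr in edgeR 4.0.16, which kept 14286 genes, libraries were scaled by TMM and tested with voom of limma 3.58.1 in R 4.3.3, the test that the study's methods state, and p-values were adjusted (Benjamini-Hochberg) over the 14286 genes. The threshold was an adjusted p under 0.05 with a fold change above 2. Fold changes are in voom's log2 units, and for log2 CPM the prior count was 2. The quasi-likelihood test of edgeR, DESeq2 1.42.0, quality weights, other scalings and filters, the replicate block and leaving out each library were alternatives, and replicates 1 and 2 only was added after the data had been seen. The tests were tried on simulated counts.

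The 42 genes and the other lists were chosen with earlier results of these data known. All 42 were named, with values in every library for genes whose groups did not overlap, genes at an unadjusted p under 0.05 and genes under the filter. APCDD1, NOTUM, FZD1, FZD2, APC and ASCL2 were shown in each library after their values were seen, as was BMI1 by its range. Of the pathway lists, the 10 genes with the largest fold changes at an unadjusted p under 0.05 were named. Gene positions count from 1 on GRCh37 (hg19) and were read from a lifted GENCODE annotation, and exon lengths are the union of its exons. Promoters are RefSeq sequences on GRCh38.p14, a different build, used only for their letters.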

Additional observations from a re-analysis of the deposited data

How the results depend on the processing

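Over the 16 alternatives, CTNNB1 and CCND1 stayed higher and DKK1, SP5 and LEF1 lower in POU5F1B cells. Of the fold changes of single genes, 538 kept their direction and side of the threshold, 22 changed sign and 16 passed the threshold. The number of genes past the threshold was 0 of all genes and 0 of the 36. With DESeq2 it was 232 and 1, with sample quality weights 1077 and 4, with no filter 4 of all genes, with the replicate block 1, and with replicates 1 and 2 only 1194 and 6. Across the fits that left out 1 library it ranged from 0 to 595 for all genes, with 595 without GFP replicate 3 and 5 without POU5F1B replicate 3, and from 0 to 5 for the 36. For the other Wnt pathway genes it was 6 with DESeq2, 15 with quality weights and 14 with replicates 1 and 2 only, and 0 to 9 with 1 library left out.

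At an unadjusted p under 0.05 there were 5 of the 36, but 17 with quality weights (47.2%, beside 40.1% of all genes), 10 with the replicate block (27.8%, beside 11.9%), 21 with replicates 1 and 2 only (58.3%, beside 40.2%) and 2 to 13 with 1 library left out: 13 without GFP replicate 3 (36.1%, beside 29.4%), 8 without POU5F1B replicate 3 (22.2%, beside 12.5%) and 2 without POU5F1B replicate 1 or 2 (5.56%, beside 5.19% and 6.75%). Of the 10 with the replicate block, 8 were lower (22.2%, beside 5.99%). The median of -0.21 ranged from -0.17 to -0.071 with 1 library left out, and without GFP replicate 1 it moved by more than the spread between libraries, to -0.071. Over all alternatives the median ranged from -0.25 to -0.071. The groups did not overlap for 2 higher and 3 lower genes. These were 4 and 1 with the upper quartile and with total counts. They were 3 and 1 with at least 10 counts in every sample, and 10 and 18 with replicates 1 and 2 only. With 1 library left out they ranged from 2 to 6 higher and from 3 to 12 lower, with 5 lower without GFP replicate 2 (10.7% of all genes), 4 higher without POU5F1B replicate 2 (13.2% of all genes), 6 and 10 without GFP replicate 3 (24% and 24.7% of all genes) and 5 and 12 without POU5F1B replicate 3 (17.3% of all genes in each direction). The causes were not tested, and the fits that left libraries out also held fewer libraries.

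The sign changed for LGR6 (-0.026), TCF7L1 (-0.0086), BMI1 (0.14) and LRIG1 (-0.0044) with quality weights, for LGR4 with the upper quartile (0.046), total counts (0.034) and at least 10 counts (0.011), and for LGR6 (-0.28), TCF7L1 (-0.11), BMI1 (0.24) and LRIG1 (-0.052) with replicates 1 and 2 only. With 1 library left out, FZD1 ranged from -1.02 to 0.072, FZD3 from -0.13 to 0.37, LGR4 from -0.54 to 0.32, LGR6 from -0.15 to 0.42, TCF7L1 from -0.13 to 0.57, ZNRF3 from -0.017 to 0.19, TNFRSF19 from -0.77 to 0.069, BMI1 from -0.38 to 0.14 and LRIG1 from -0.028 to 0.43. The replicate numbers were checked for pairing: same-numbered libraries deviated from their group means with correlations of 0.242, 0.0883 and 0.165 across genes, under the limit of 0.1 for replicate 2, and GFP replicate 2 correlated best with POU5F1B replicate 1 (0.25), so the numbers were not taken to pair the libraries. Both replicate 3 libraries were nevertheless above the other 4 for 13.8% of all genes and below them for 10.9%, and what they share was not tested. With the replicate block 0 of the 36 passed the threshold and no fold change of these genes changed sign.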
